A study of Homo sapiens with 2 samples.

Results

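Inhibitory coreceptors of B cells were followed through 10 genes: the surface receptors CD72, CD22, CD5, FCGR2B, FCRL1, FCRL2, SIGLEC10 and LILRB1, the Fc receptor-like protein FCRLA, and PTPN6, which encodes the tyrosine phosphatase SHP-1. The genes were taken by name and found by Entrez number, 10 of the 25702 gene features in the count table, and the rule that picks them uses names, not levels. The cells were REH (REH-R in the labels), an established line grown from a human leukaemia of B-cell precursors. In the PAX5 culture doxycycline turned on a PAX5-IRES-GFP cassette: PAX5 is a transcription factor needed for commitment to the B lineage, GFP is a green fluorescent reporter, and the IRES lets both be translated from a single transcript. In the control culture the cassette was IRES-GFP without PAX5. Both cultures were given doxycycline at 1 µg/mL for 3 days and both were sorted for GFP before RNA extraction. No source used here says whether a culture came from a single clone.

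With 1 library per group, differences could not be checked in replicates, and neither p-values nor standard errors are reported. Total counts were 11944765 for the PAX5 library, against 10997864 for the control library, and 13532 features had at least 10 counts over both. PAX5 (Entrez 5079) had 8319 counts in the PAX5 library, against 2660 counts in the control library, 2.91-fold (2.78 to 3.04), and cassette and endogenous transcripts are counted together. The label of a B-cell precursor line was checked against 11 markers, and all 11 had at least 10 counts over both libraries. Their levels ranged widely. DNTT was at 792 RPKM in the PAX5 library, against 904 RPKM in the control library. VPREB1 had only 17 counts in the PAX5 library, against 7 counts in the control library. The mature B-cell markers MS4A1, CR2 and FCER2 had 0 counts in both libraries, and 6 T-cell markers summed to 0 counts in the PAX5 library, against 1 count in the control library.

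A B cell sets the strength of its antigen receptor signal partly through coreceptors whose cytoplasmic tails carry an immunoreceptor tyrosine-based inhibitory motif (ITIM). When the receptor is engaged, a Src-family kinase such as LYN phosphorylates the motif, and the tail then recruits SHP-1 or the lipid phosphatase SHIP-1, which dampen the signal. CD22 and CD72 are present from early B-cell stages, whereas FCGR2B, FCRL2 and SIGLEC10 are better known from mature B cells. Not all of the 10 fit the heading equally: FCRL1 carries activating-type motifs and FCRLA is an intracellular protein without a membrane anchor.

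CD72 and CD22 were the most abundant coreceptor transcripts, and their upstream sequences are shown because CD72 differed between the libraries while CD22 hardly did. Each is the 250 bases before an annotated start, from RefSeq on GRCh38.p14, at chr9:35618414-35618663 on the minus strand for CD72 and chr19:35328937-35329186 on the plus strand for CD22. Capitals mark only GAGGAA, a sequence of the kind bound by ETS factors such as PU.1, or its reverse complement. The shorter GGAA within it is not marked on its own and occurs in both windows, so the marks do not set CD72 apart from CD22.
CD72: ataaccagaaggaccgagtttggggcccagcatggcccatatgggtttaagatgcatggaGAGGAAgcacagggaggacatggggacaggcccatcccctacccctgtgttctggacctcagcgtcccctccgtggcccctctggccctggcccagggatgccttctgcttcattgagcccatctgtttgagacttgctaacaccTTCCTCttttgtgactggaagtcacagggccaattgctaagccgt
CD22: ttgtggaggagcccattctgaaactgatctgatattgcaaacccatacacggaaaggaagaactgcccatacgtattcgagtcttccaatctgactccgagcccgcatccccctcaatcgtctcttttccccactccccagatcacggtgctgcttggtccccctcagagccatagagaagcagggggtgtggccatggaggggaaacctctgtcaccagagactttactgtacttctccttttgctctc
Windows were found for 9 of the 10 genes, 13 windows in all because some genes have several starts. The heptamer GCGTGAC, part of the known PAX5 recognition sequence, was searched on both strands and was in 0 of the 13 windows, against 2.20% of all 35116 windows of this length. GAGGAA, a motif chosen after the sequences were seen, was in 4 of the 13, against 23.6% of all windows. In CD72 it was found 190 and 45 bases before the start. The other matches were in FCGR2B, FCRL1 and FCRLA, while the windows of CD22, FCRL2, SIGLEC10, LILRB1 and PTPN6 held neither motif. These matches describe letters, not binding sites, and no binding was measured.

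CD72 was the 1 member past the rule of size used in place of a test, in which the exact 95% counting interval of the ratio had to lie at or beyond 2-fold with at least 10 counts over both libraries. CD72 is a C-type lectin-like coreceptor that recruits SHP-1, and in mouse B cells its gene is a known target of PAX5. It had 882 counts in the PAX5 library, which is 74.2 CPM (counts per 1000000 after scaling) with an interval of 69.4 to 79.2. In the control library it had 209 counts, which is 18.9 CPM (16.4 to 21.7). The intervals of the libraries lay far apart, and the ratio was 3.92-fold (3.37 to 4.58), a log2 ratio of 1.97 (1.75 to 2.20). Of all 13532 features measured, 1.34% were higher by this rule and 0.0517% were lower. Of the 10 genes only 6 had the counts needed, and 1 of 6 is a single call and not a pattern of the group. Among the 182 features that were higher, CD72 stood 87th by its lower bound and 18th by its summed count, so it was one of the better counted. In bulk RNA, more cells with the transcript and more transcript per cell cannot be told apart.

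The exons of CD72 overlap those of TESK1, a kinase gene on the opposite strand, over 15.0% of their length in GENCODE 29. Exons of the antisense gene AL357874.1 overlap 4.49% of the CD72 exons. No source used here gives the strand setting of the counting. TESK1 had 327 counts in the PAX5 library, against 303 counts in the control library, a log2 ratio of 0.0042 (-0.23 to 0.23). SIT1, the nearest protein-coding gene on the other side, encodes a lymphocyte adaptor with an ITIM and had 12 counts in the PAX5 library, against 11 in the control library, a log2 ratio of 0.02 (-1.29 to 1.34). The interval of TESK1 lay wholly below that of CD72, and the few counts of SIT1 left a wide interval.

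CD22 is a sialic acid-binding lectin (a Siglec) that binds glycans on the B cell's own surface and recruits SHP-1. It had 2101 counts or 177 CPM (169 to 184) in the PAX5 library, against 1829 counts or 166 CPM (158 to 173) in the control library. The intervals of the libraries overlapped. The log2 ratio was 0.09 (0.0031 to 0.19), above 0 by so little that scaling by total counts or by upper-quartile factors put 0 inside the interval. PTPN6, the phosphatase that CD22 and CD72 share, had 605 counts or 50.9 CPM (46.9 to 55.1) in the PAX5 library, against 613 counts or 55.5 CPM (51.2 to 60.1) in the control library. Its log2 ratio of -0.12 (-0.29 to 0.04) spanned 0, and a difference beyond about 1.22-fold lower in the PAX5 library lay outside the interval.

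**Figure D1:**
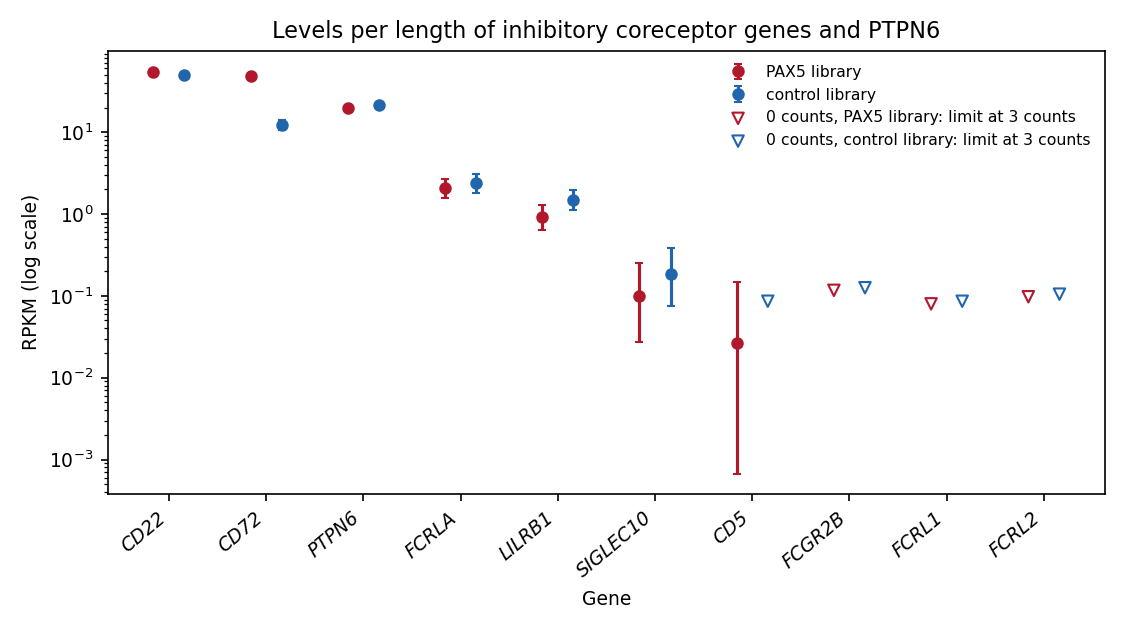
Level of each of the 10 genes in RPKM (log scale) in the PAX5 library and the control library, 1 library each, with exact 95% counting intervals as bars and open triangles for the limit of 3 counts where a library had 0. CD72 differed between the libraries by more than its intervals, at 47.9 RPKM in the PAX5 library, against 12.2 RPKM in the control library, while CD22 and PTPN6 lay close together.

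Levels can be compared between genes only per length, as RPKM (reads per kilobase of gene length and 1000000 counts). In the PAX5 library CD22 led at 53.7 RPKM (51.4 to 56.0), then CD72 at 47.9 (44.8 to 51.2), PTPN6 at 19.9, FCRLA at 2.06, LILRB1 at 0.914 and SIGLEC10 at 0.0991 RPKM. In the control library the order was CD22 at 50.3 RPKM (48.0 to 52.6), PTPN6 at 21.7, CD72 at 12.2, FCRLA at 2.37, LILRB1 at 1.49 and SIGLEC10 at 0.187 RPKM. CD72 and PTPN6 therefore stood in opposite order in the libraries. Each neighbouring pair was separated by more than counting error, and the closest were CD22 over CD72 in the PAX5 library at 1.12-fold (1.03 to 1.21) and FCRLA over LILRB1 in the control library at 1.59-fold (1.08 to 2.36). No spread between cultures is known, so these orders hold for the libraries alone. In rank among all features by RPKM, CD72 was at 1733 in the PAX5 library, against 5832 in the control library, and CD22 was at 1524 in the PAX5 library, against 1680 in the control library.

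CD72 can also be set against other transcripts of the same library, so that no library scaling enters, a comparison added after the data were seen. CD72 stood at 0.893 of the CD22 level per length in the PAX5 library, against 0.243 in the control library, a ratio of these of 3.67 (3.11 to 4.35). Against PTPN6 it stood at 2.40 in the PAX5 library, against 0.562 in the control library, a ratio of 4.27 (3.53 to 5.19). Against the signalling chain gene CD79A the ratio was 3.97 (3.40 to 4.67) and against its partner CD79B it was 2.93 (2.50 to 3.44). Over the 8 genes that CD72 was set against, among them FCRLA, LILRB1, TESK1 and SIT1, the ratio was lowest for CD79B and highest for LILRB1 at 6.38 (3.92 to 10.5). All 8 intervals lay above 1, but all 8 reuse the same CD72 counts. CD72 was also picked for its own ratio, so the 8 are not separate support for it. Of the summed RPKM of the 9 coreceptor genes, CD72 made up 45.8% in the PAX5 library, against 18.4% in the control library. The sum was 105 RPKM in the PAX5 library, against 66.6 RPKM in the control library, and without CD72 it was 56.8 RPKM in the PAX5 library, against 54.3 RPKM in the control library.

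Among 4562 features with a symbol and a summed count within 2-fold of that of CD72, the nearest log2 ratios over the 2 libraries were those of SH2D4B, ICOSLG and CTIF. SH2D4B, which encodes an SH2-domain protein, had 649 counts in the PAX5 library, against 146 in the control library, a log2 ratio of 2.05. ICOSLG, the ligand of the T-cell costimulator ICOS, had 1522 counts in the PAX5 library, against 324 in the control library, a log2 ratio of 2.13. CTIF, a translation initiation factor, had 772 counts in the PAX5 library, against 228 in the control library, a log2 ratio of 1.65. With 2 libraries such likeness says only that the sizes are near each other.

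**Figure D2:**
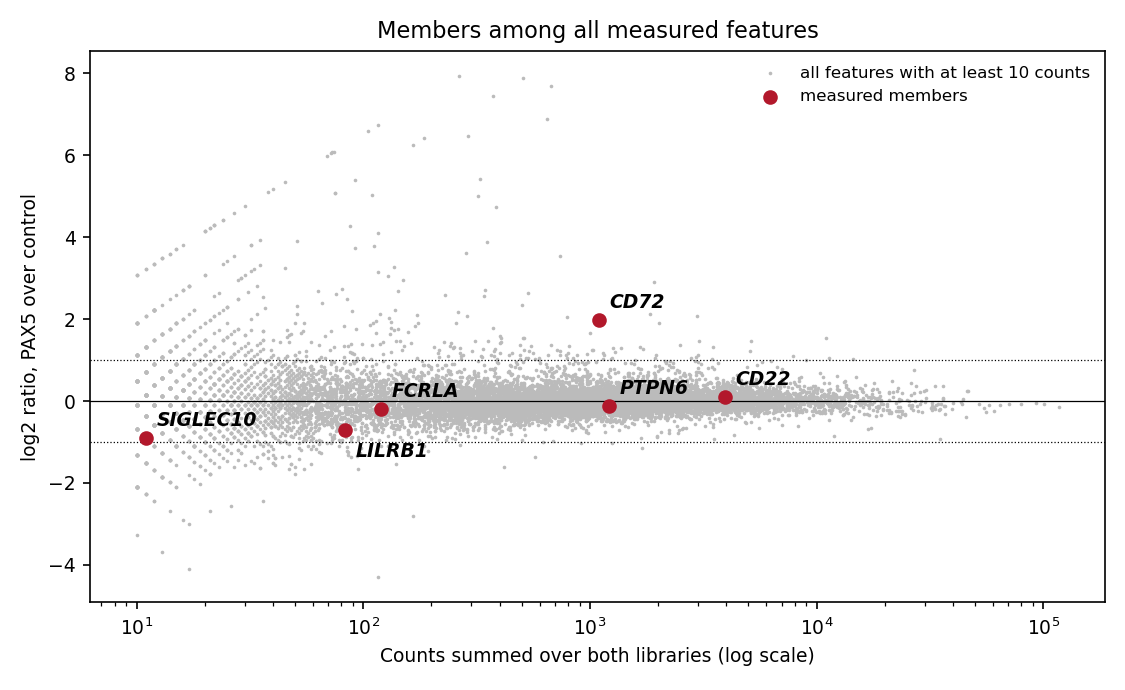
Log2 ratio (PAX5 library over control library) against the counts summed over both (log scale), for all features with at least 10 counts and counts in both libraries, with the 6 measured members in red and dotted lines at 2-fold. CD72 lies above the 2-fold line at 1.97, as do some other features of similar count, and CD22, PTPN6 and FCRLA lie within the bulk of features.

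The Fc receptor-like and leukocyte immunoglobulin-like members were low or not detected. FCRLA, an intracellular protein that binds immunoglobulin in the secretory pathway, had 58 counts or 4.88 CPM (3.70 to 6.31) in the PAX5 library, against 62 counts or 5.61 CPM (4.30 to 7.19) in the control library. The intervals overlapped and the log2 ratio was -0.20 (-0.74 to 0.34). LILRB1, an ITIM receptor for MHC class I molecules, had 33 counts or 2.78 CPM (1.91 to 3.90) in the PAX5 library, against 50 counts or 4.53 CPM (3.36 to 5.97) in the control library. These intervals overlapped too, and the log2 ratio of -0.71 (-1.39 to -0.04) had an interval wholly below 0, as did 16.8% of all features measured. SIGLEC10, a Siglec whose ligands include CD24 and CD52, had 4 counts in the PAX5 library, against 7 in the control library, a log2 ratio of -0.91 (-3.13 to 1.06), which allows a difference in either direction. Exons of the antisense gene AC008750.2 overlap 16.2% of the SIGLEC10 exons and those of AC008750.1 overlap 6.44%. Of its 50-base words 9.34% occur in other genes, mostly SIGLEC11, so its few reads are uncertain.

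LILRB1 is also a gene of myeloid cells, and the myeloid markers of the libraries are given beside it. Of 8 such markers 3 were measured, none past the rule of size, and their log2 ratios were -1.14 for the granule enzyme MPO, -0.43 for the integrin ITGAM and -1.66 for the growth factor receptor CSF1R. The 8 summed to 66.9 CPM in the PAX5 library, against 132 CPM in the control library, mostly MPO, while ELANE had 0 counts in both libraries and LYZ had 1 count in each. The natural killer cell marker NKG7 had 27 counts in the PAX5 library, against 46 in the control library, and the other 4 natural killer cell markers had 0 counts in both. The part of these markers in the LILRB1 value was not tested. Of 50-base words in LILRB1 transcripts, 15.1% also occur in transcripts of other genes, mostly LILRB2, so its reads may be split or lost, and exons of LILRB1-AS1 overlap 7.09% of its exons on the opposite strand.

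The other 4 members were at or near 0. CD5, a scavenger receptor family coreceptor of T cells and of some B cells, had 1 count in the PAX5 library, against 0 counts in the control library. FCGR2B, the inhibitory receptor for immunoglobulin G, and the Fc receptor-like genes FCRL1 and FCRL2 had 0 counts in both libraries. By counting error alone, 0 counts leave room for 0.252 CPM in the PAX5 library, against 0.272 CPM in the control library. No ratio can be given for these 4, and a difference below those limits was not detectable at this depth. The FCRL1, FCRL2 and CD5 transcripts, like those of CD72, CD22, FCRLA and PTPN6, shared 0% of their 50-base words with other genes on the sense strand. The comparison of words does not see overlap with genes on the opposite strand, such as that of CD72 with TESK1.

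FCGR2B has close copies, and 32.9% of its 50-base words occur in transcripts of another gene, mostly FCGR2C. The remaining words are its own, and no read was assigned to the gene. FCGR2A, an activating receptor of the same cluster, had 45 counts in the PAX5 library, against 70 counts in the control library, and FCGR2C had 3 counts in the PAX5 library, against 5 in the control library. Summed over the 3 genes, a step added after the data were seen, there were 48 counts in the PAX5 library, against 75 counts in the control library, a log2 ratio of -0.75 (-1.30 to -0.21). The treatment of reads that match several of these genes is not stated in the sources, so the split among them is uncertain.

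Over the 10 members, 6 had the 10 counts needed. By interval, 2 of the 6 lay above 0 (CD72 and CD22), 1 below 0 (LILRB1) and 3 spanned 0. Over all features measured the shares were 18.7% above 0 and 16.8% below 0. The median log2 ratio of the 6 was -0.16, beside -0.0066 over all features. The members therefore did not share a direction.

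Related genes were described through 5 lists, in which no gene passed the rule of size in either direction. Over all features measured, 1.34% were higher by this rule and 0.0517% were lower. The absence of calls in lists this short is therefore not a result about them. By interval, 18.7% of all features measured lay above 0 and 16.8% below 0. Of 23 other genes with an ITIM tail, 7 were measured and 9 had 0 counts in both libraries, among them PDCD1, BTLA, FCRL3, FCRL4 and FCRL5. The most abundant was LAIR1, a collagen receptor, at 26.5 RPKM in the PAX5 library, against 27.7 RPKM in the control library. CD300A alone had an interval off 0, with 191 counts in the PAX5 library, against 225 in the control library and a log2 ratio of -0.34 (-0.63 to -0.06). The median of the 7 was -0.21. Of 15 relatives and cluster neighbours of the members 3 were measured, with a median of -0.33: FCGR2A at -0.74, LILRA2 at -0.33 (-0.50 to -0.17) and LILRA1 at 0.10. LILRA2, an activating receptor, reached 27.9 RPKM in the PAX5 library, against 35.2 RPKM in the control library, above every LILR gene among the members and lists, and 18.6% of its 50-base words occur in other genes.

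Effectors downstream of the coreceptors went both ways and none passed the rule of size, by which 1.34% of all features measured were higher. Of 16 negative regulators 15 were measured, 5 with intervals above 0 and 4 below 0, and the median log2 ratio was 0.01. The shares over all features measured were 18.7% above 0 and 16.8% below 0. INPP5D, which encodes SHIP-1, had 51.6 RPKM in the PAX5 library, against 44.7 RPKM in the control library, a log2 ratio of 0.21 (0.13 to 0.28). PTPN11, which encodes the related phosphatase SHP-2, had 49.9 RPKM in the PAX5 library, against 47.6 RPKM in the control library, and its log2 ratio of 0.07 spanned 0. PAG1, a membrane adaptor that holds the inhibitory kinase CSK near Src-family kinases, had a log2 ratio of 0.48 (0.43 to 0.53), while CSK itself was at 0.0021 (-0.08 to 0.09). PTPN12, a cytosolic tyrosine phosphatase, was at 0.40 and the ubiquitin ligase gene CBL at 0.26. PTPN22, a phosphatase that acts on Src-family kinases, had 74 counts in the PAX5 library, against 124 in the control library, a log2 ratio of -0.85 (-1.29 to -0.42). DOK2 was lowest at -2.11, but from 2 counts in the PAX5 library, against 8 in the control library, with an interval that spanned 0.

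On the activating side, 20 of 22 genes of the receptor complex and its kinases and adaptors were measured, 9 with intervals above 0 and 6 below 0, and their median was 0.03. Beside these stand 18.7% above 0 and 16.8% below 0 over all features measured. PRKCB, a protein kinase C, was at 0.59, PTPRC, the receptor phosphatase CD45, at 0.47 and the receptor chain CD79B at 0.42. The 3 Src-family kinases on the list, a family that phosphorylates inhibitory tails, had intervals below 0: BLK at -0.54 (-0.77 to -0.31), LYN at -0.27 (-0.53 to -0.01) and FYN at -0.21 (-0.35 to -0.07). LCK, a kinase of this family that was not on the list, had a log2 ratio of 0.19 from 243 counts over both libraries. The values of the 3 are therefore not a result for the family. SYK, the kinase of the activating motif, was at -0.02 (-0.09 to 0.04).

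Ligands of the members were all measured, 6 of 10 with intervals above 0, 1 below 0 and a median of 0.26. Over all features measured, 18.7% lay above 0 and 16.8% below 0. The intervals cover counting error only and are narrow for highly counted genes, such as HLA-B with 20958 counts in the PAX5 library, against 15116 in the control library. CD52, a ligand of SIGLEC10, had 2038 counts in the PAX5 library, against 907 in the control library, a log2 ratio of 1.06 (0.95 to 1.18) that did not pass the rule, while CD24, another of its ligands, was at 0.01. SEMA4D, the semaphorin that binds CD72, had 948 counts in the PAX5 library, against 881 in the control library, 11.7 RPKM in each. ST6GAL1, the enzyme that makes the sialic acid linkage bound by CD22, had 971 counts in the PAX5 library, against 1181 in the control library, a log2 ratio of -0.39 (-0.51 to -0.26). Of the class I genes whose products bind LILRB1, HLA-B was at 0.37, HLA-F at 0.38 and HLA-C at 0.29, while HLA-G at 0.07 (-0.24 to 0.38) spanned 0, with reads that near-identical copies may share.

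**Figure D3:**
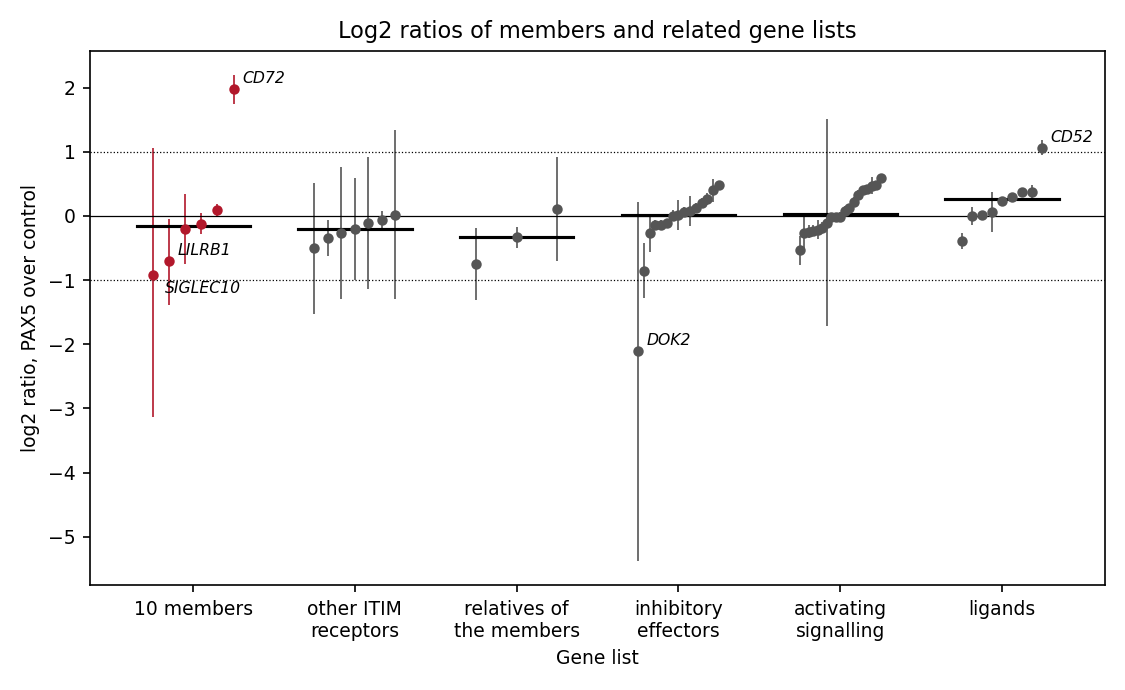
Log2 ratios (PAX5 over control) with exact 95% counting intervals for the measured genes of the 10 members (red) and of 5 related lists (grey), with each list's median as a black bar and dotted lines at 2-fold. CD72 at 1.97 is the gene whose whole interval lies past the 2-fold line, and CD52 at 1.06 has an interval that crosses it.

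Gene length moved with the ratios in these libraries. In 10 groups of features by length, the median log2 ratio ran from -0.21 in the shortest group (median length 843 bases) to 0.19 in the longest (8088 bases). CD72, at 1548 bases, fell in a group with a median of -0.12, and after centring on that median its log2 ratio was 2.09 (1.87 to 2.31). CD22, FCRLA, LILRB1, PTPN6 and SIGLEC10 fell in groups with medians between -0.05 and -0.01.

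**Figure D4:**
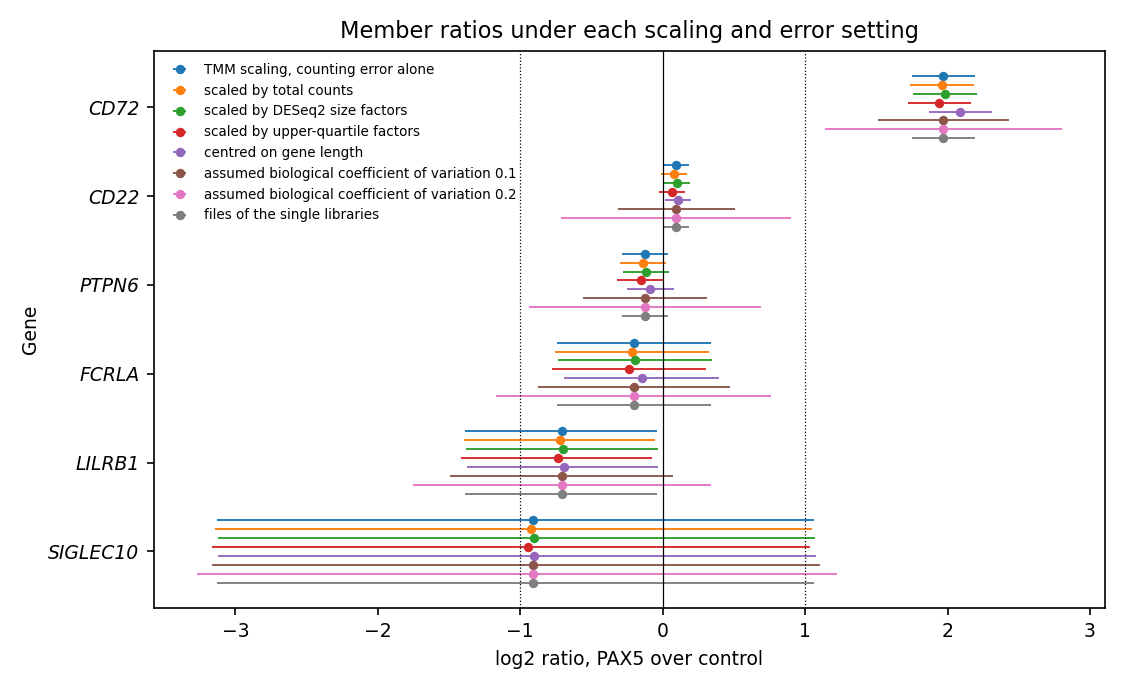
Log2 ratio (PAX5 over control) for each measured member under each scaling and error setting, with 95% intervals and dotted lines at 2-fold. CD72 kept its interval past 2-fold in every setting drawn, and the intervals of CD22 and LILRB1 met 0 under the wider error settings.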

How the data were processed

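Both libraries were prepared from total RNA with a NEBNext Ultra kit, per the labels' protocols. Values are whole-number read counts per Entrez gene, as deposited, beside a gene length. Counting was by featureCounts and the build was hg19 (GRCh37), both per the submitters' processing notes. No source used here gives the aligner, the versions, the strand setting or the handling of reads that match several genes. The series table and the single-library files held the same 51404 values.

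Symbols were looked up by Entrez number in RefSeq (GRCh38.p14), which matched 23696 of 25702 features. Scaling was by TMM (edgeR 4.0.16, R 4.3.3) on features with at least 10 counts, with factors of 0.9954 (PAX5) and 1.0046 (control). Ratios have exact Clopper-Pearson 95% intervals conditional on the summed count, levels exact Poisson intervals (scipy 1.17.1), and ratios of ratios have exact conditional intervals. Intervals and the floor of 3 counts cover counting error only. They may be too narrow even for that, since PCR copies are not independent molecules. With no residual degrees of freedom neither edgeR nor DESeq2 1.42.0 could test a gene, so the rule of size stands in for one. The rule was run on simulated counts drawn with counting error only. That run held no variation between cultures, so it cannot show how the rule fares against such variation. Shared 50-base words and exon overlaps describe GENCODE 29 on GRCh38, not the build counted on.

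Genes named are all members, PAX5, up to 4 measured genes per list with the largest bounds, and 3 features most like each called member. Other list genes, and LCK, were named after their values were seen. For 2 list genes no values are reported or drawn, although counts and medians of lists include them. The members and lists were chosen with earlier results of these data known. Alternatives were other scalings, count minimums, fold thresholds, centring on length in 10 groups, intervals widened for a biological coefficient of variation set at 0.1 or 0.2, and the single-library files. The planned search of protein sequences for ITIM motifs was not run, since protein sequences were not used here.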

Additional observations from a re-analysis of the deposited data

How the results depend on the processing

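CD72 stayed past 2-fold under all 7 scaling, length, error and file settings, with a log2 ratio between 1.94 and 2.09, and its lowest lower bound was 1.14 at an assumed biological coefficient of variation of 0.2. The file setting could not differ, because the single-library files held the same values. With the bound at 4-fold, 0 members were higher. The count of members with intervals above 0 was 1 instead of 2 when scaled by total counts, by upper-quartile factors and at a coefficient of 0.1 or 0.2, where CD22 spanned 0. The count below 0 was 0 instead of 1 at a coefficient of 0.1 or 0.2, where LILRB1 spanned 0. Wider intervals follow from those coefficients by construction. No member reversed its direction in these settings. Over all features, 182 higher and 7 lower became 113 and 4 with a count minimum of 50, 547 and 234 by the point ratio, 355 and 47 with the bound at 1.5-fold, and 70 and 2 with the bound at 4-fold. The lower count was 4 after centring on length and 3 at a coefficient of 0.2. Depth limits SIGLEC10, CD5, FCGR2B, FCRL1 and FCRL2, for which no difference could be shown. No paired analysis was possible because each group has 1 library, and leaving out a library was likewise not possible.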
